A study of Mus musculus with 12 samples.

Results

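The 10 genes described here encode the constant regions of mouse antibodies and the chain that joins antibodies into polymers. They are the heavy chain genes Ighm, Ighd, Ighg3, Ighg1, Ighg2b, Ighg2c and Igha, the light chain genes Igkc and Iglc1, and Jchain. They were taken by name from a count table of 54532 gene identifiers, whose symbols came from the GENCODE M21 annotation, and all 10 passed the filter on low counts that left 16675 genes to test. The table holds RNA sequencing of haematopoietic stem and progenitor cells (HSPCs) from mouse bone marrow, in 12 libraries that form 4 groups of 3. The groups are uncultured HSPCs of young and of aged mice and aged HSPCs kept in culture, with vehicle in 1 group and in the other with uridine, a nucleoside that the series title names as an anti-aging factor in blood formation. The genotype is labelled c57bl/6 WT for all vehicle libraries and runs upward by 1 per library, from c57bl/7 WT to c57bl/15 WT, over the uridine, young and aged libraries in that order. The sources used here do not give the ages of the mice, the markers used to isolate the cells, the uridine dose or the culture time. They also do not say whether each library is a separate animal or culture, so the tests weigh differences only against the spread among these libraries, possibly a technical one.

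An antibody is built from paired heavy and light chains, and the constant region of the heavy chain sets its class, or isotype. A B cell first transcribes Ighm, for IgM, and by alternative processing of the same long transcript Ighd, for IgD. After stimulation it can switch class by a recombination that removes Ighm and puts the same variable region next to an IgG, IgE or IgA gene further along the chromosome. Light chains come from the kappa locus, with the single constant gene Igkc, or from the lambda locus, with several constant genes that include Iglc1. Plasma cells, the antibody-secreting end stage of B cells that settles in bone marrow, hold these mRNAs at very high levels, and the J chain they make links the tails of secreted IgA and IgM.

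The 7 heavy chain genes lie near each other on the minus strand of chromosome 12 (GRCm38/mm10, GENCODE M21). In the direction of transcription the order runs from Ighm at chr12:113418558-113422730 through Ighd, Ighg3, Ighg1, Ighg2b and Ighg2c to Igha at chr12:113254830-113260236. The IgE gene Ighe, not among the genes described here, lies between Ighg2c and Igha. Igkc lies at chr6:70726435-70726966 on the plus strand, Iglc1 at chr16:19061618-19062071 on the minus strand and Jchain at chr5:88519809-88527891 on the minus strand. The first set of sequences is shown because it separates the heavy chains that J chain can bind from those that it cannot. Each line gives the last 60 coding bases of the secreted form, from the GENCODE M21 transcripts, and capitals mark the last codon but one.
Ighm, chr12:113420870-113420929: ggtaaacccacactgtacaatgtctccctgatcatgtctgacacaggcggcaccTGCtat
Igha, chr12:113258771-113258830: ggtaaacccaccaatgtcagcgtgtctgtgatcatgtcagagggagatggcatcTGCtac
Ighg2b, chr12:113306392-113306451: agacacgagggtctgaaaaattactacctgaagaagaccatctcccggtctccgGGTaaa
Ighg1, chr12:113328979-113329038: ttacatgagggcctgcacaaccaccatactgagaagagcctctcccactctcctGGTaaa
In Ighm and Igha this codon was TGC, which is read as cysteine, the residue through which the tails of IgM and IgA are bonded to J chain. In Ighg2b and Ighg1 it was GGT, read as glycine.

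The second set shows how alike the 4 IgG genes are, which bears on how far their counts can be told apart. Each line gives the first 60 bases of the first constant exon, and capitals mark the 22 positions at which the 4 genes are not all identical.
Ighg3, chr12:113361173-113361232: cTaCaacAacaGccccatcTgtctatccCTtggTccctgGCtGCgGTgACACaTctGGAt
Ighg1, chr12:113330464-113330523: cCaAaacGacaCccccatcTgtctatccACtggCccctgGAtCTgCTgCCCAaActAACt
Ighg2b, chr12:113307874-113307933: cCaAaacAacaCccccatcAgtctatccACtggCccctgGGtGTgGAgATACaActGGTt
Ighg2c, chr12:113288873-113288932: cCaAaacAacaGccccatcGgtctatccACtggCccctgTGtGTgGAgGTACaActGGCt
Over the coding sequence of the secreted form, Ighg2b and Ighg2c were the most alike pair of heavy chain genes, with 85.9% identity over 1004 aligned bases and a longest shared run of 78 bases. The other IgG pairs had 75.4% to 77.7% identity. No stretch of 150 bases, the length of 1 read, was shared by any pair of secreted heavy chain transcripts. How the counting treated a read that matched both Ighg2b and Ighg2c is not stated in the sources at hand, so the split between those genes is less certain than the other values.

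The libraries held 16785065 to 19025802 counts each. The 10 genes took 18.5% to 18.7% of all counts in the uncultured aged libraries, and 0.424% to 0.428% in the young, 0.774% to 0.777% in the vehicle and 0.491% to 0.506% in the uridine libraries. They made up 77.9% to 85.5% of the counts of all immunoglobulin genes plus Jchain. Markers of stem and progenitor cells were present in every library, with summed levels of 15 genes from 1613 to 2155 CPM (read counts scaled to a common library size). Markers of plasma cells and mature B cells were present too, and their levels are given further on. In these bulk libraries, fewer cells of a type and less RNA per cell cannot be told apart.

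The plot of levels by library shows that the 12 libraries fell into 4 tight groups for most of the 10 genes. The library size behind CPM includes TMM scaling, which corrects for the large share of reads that antibody genes took in the aged libraries. Relative to the mean, the SD was largest for Ighd in vehicle cultures, at 0.708 for a mean of 3.003 CPM, and smallest for Ighm in vehicle cultures and Jchain in young cells, at 0.625 for 961 and 0.291 for 303 CPM. Both of those spreads were below what counting error alone gives on average, as were 8 of the 40 spreads of a gene in a group.

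**Figure D1:**
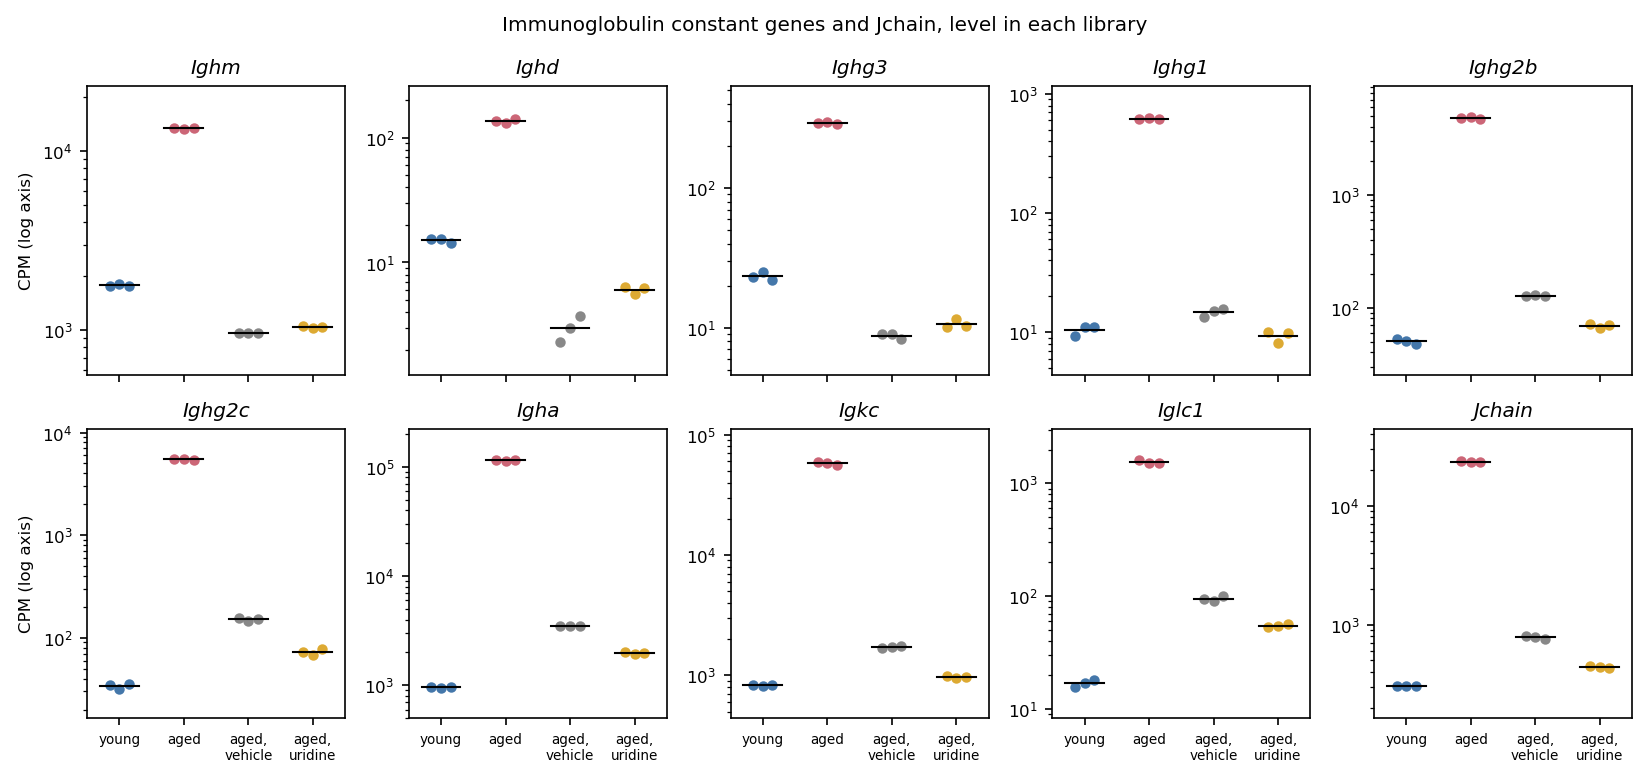
Level of each of the 10 genes in each library, in TMM-scaled CPM on a log axis that differs between panels; points are libraries and lines are group means, n = 3. Young and aged are the uncultured groups. All 10 genes were highest in uncultured aged cells, and 6 of them were in the order aged, vehicle, uridine, young.

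Uncultured aged HSPCs held far more RNA of every antibody constant gene than uncultured young HSPCs, and IgA, IgG2b and IgG2c RNA rose much more than IgM and IgD RNA. Igha, which encodes the heavy chain of IgA, the antibody of mucosal surfaces, stood at 968, 953 and 972 CPM in the young libraries and at 114700, 113800 and 115400 CPM in the aged libraries. Every aged library lay far above every young one. The log2 fold change was 6.89 (SE 0.0136) with an edgeR adjusted p of 4.09e-64, a 119-fold rise.

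Ighm, the heavy chain of the first antibody class, was 1773, 1817 and 1757 CPM in young and 13450, 13290 and 13340 CPM in aged libraries. It was thus the most abundant heavy chain RNA in young cells and the one with the smallest rise, 7.50-fold (log2 fold change 2.91, SE 0.0151, edgeR adjusted p = 2.02e-50). Ighd, carried together with IgM on naive B cells, rose 9.02-fold, from 15.0 ± 0.645 to 136 ± 4.44 CPM (SD, n = 3). Ighg3, the IgG class that lies first after Ighd, rose 12.5-fold, from 23.4 ± 1.41 to 292 ± 6.76 CPM.

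The 3 IgG genes further along the locus rose more. Ighg2c, the IgG2 gene that C57BL/6 mice carry in place of Ighg2a, was 34.8, 31.9 and 35.3 CPM in young and 5536, 5480 and 5396 CPM in aged libraries. With a log2 fold change of 7.33 (SE 0.0352, edgeR adjusted p = 1.65e-51) its rise was the largest of the 10 genes. Ighg2b rose 95.4-fold to 4801 ± 95.5 CPM and Ighg1 59.5-fold to 621 ± 4.44 CPM.

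The chains that partner the heavy chains rose with them. Jchain was 303.2, 302.6 and 303.0 CPM in young and 23600, 23350 and 23470 CPM in aged libraries, and its rise was 77.5-fold (log2 fold change 6.28, SE 0.0186, edgeR adjusted p = 1.58e-58). Igkc, the kappa light chain, rose 70.1-fold to 57900 ± 1700 CPM, and Iglc1, a lambda light chain, rose 92.5-fold to 1556 ± 37.3 CPM. Per kb of exon, the level of Igkc in aged cells was the highest of all genes, followed by Igha in rank 2, Jchain in rank 3 and Ighm in rank 4, whereas in young cells Igkc had rank 10, Ighm 21, Igha 84 and Jchain 319.

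In this comparison 10 of 10 genes were higher by the edgeR quasi-likelihood test at an adjusted p under 0.05, against 33.2% of all genes tested, and in 10 of 10 the groups did not overlap, against 66.9% of all genes. Their median log2 fold change was 6.20, against 0.02 over all genes tested.

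**Figure D2:**
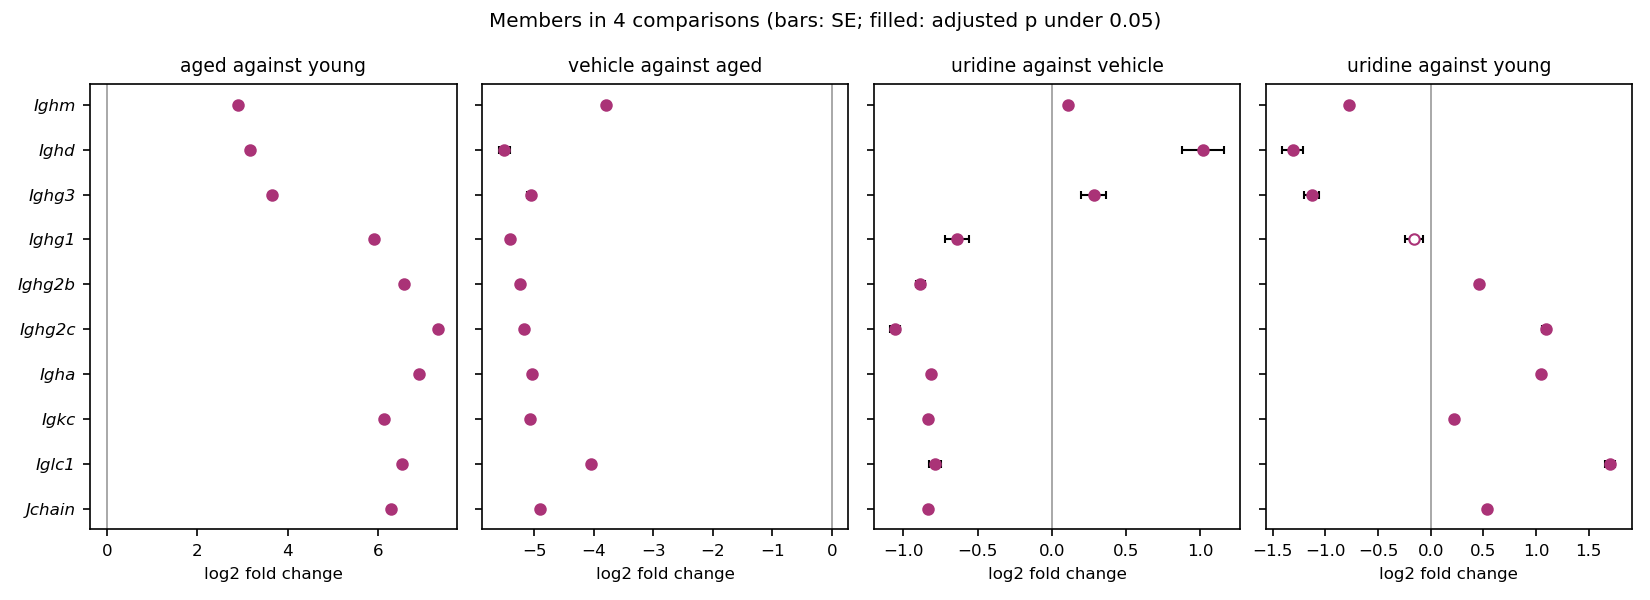
Log2 fold change of each gene in 4 comparisons from the edgeR fit, with SE as bars (many are smaller than the point); filled points have an adjusted p under 0.05, and the horizontal axes differ between panels. Changes ran from 2.91 to 7.33 for aged against young and from -5.50 to -3.80 for vehicle against aged, while in uridine against vehicle Ighm, Ighd and Ighg3 lay above 0 and the other 7 genes below it.

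In culture with vehicle, aged HSPCs held much less of all 10 RNAs than uncultured aged cells. The fall was smallest for Ighm, to 961.8, 960.7 and 960.7 CPM, a log2 fold change of -3.80 (SE 0.0158, edgeR adjusted p = 1.36e-53). The largest was that of Ighd, to 2.31, 2.97 and 3.73 CPM, a log2 fold change of -5.50 (SE 0.096, edgeR adjusted p = 6.09e-34). No vehicle library reached the level of any uncultured aged library for any of the 10 genes.

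Igha dropped by 5.04 on the log2 scale, to 3495 ± 28.2 CPM, and Jchain by 4.91, to 781 ± 18.1 CPM. Iglc1 dropped by 4.04, less than Igkc with 5.08. All 10 genes were lower by the edgeR test, against 35.1% of all genes tested, with 71.5% of all genes not overlapping between these groups, and the median log2 fold change of the 10 was -5.07, against -0.01 over all genes. The same 10 genes were lower in uridine cultures than in uncultured aged cells, where 32.1% of all genes were, with a median log2 fold change of -5.79. Both cultured groups are compared with the same aged libraries here, so these comparisons are not independent.

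The fall did not return the 10 genes to the pattern of young cells. Against uncultured young cells, vehicle cultures held more Igha, Ighg1, Ighg2b, Ighg2c, Igkc, Iglc1 and Jchain and less Ighm, Ighd and Ighg3, so 7 of 10 were higher and 3 lower by the edgeR test, against 33.3% and 32.5% of all genes. Igha was 3.62-fold and Iglc1 5.62-fold above the young level. Ighd, at 3.003 ± 0.708 against 15.0 ± 0.645 CPM, was 5.02-fold below it.

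Between uridine and vehicle cultures of aged HSPCs the 10 genes parted into a group that was lower with uridine and a group that was higher. Igha was 3483, 3527 and 3474 CPM with vehicle and 2035, 1953 and 1992 CPM with uridine. The libraries did not overlap, and the log2 fold change was -0.81 (SE 0.0107, edgeR adjusted p = 1.4e-36). Ighg2c showed the largest drop, from 155.1, 145.7 and 153.1 CPM to 73.5, 68.0 and 76.9 CPM (log2 fold change -1.05, SE 0.0314, edgeR adjusted p = 2.08e-25).

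The other genes of the lower group were close to Igha. Jchain dropped by 0.83, Igkc by 0.83, Ighg2b by 0.88, Iglc1 by 0.79 and Ighg1 by 0.64 on the log2 scale, and for each of them every uridine library lay below every vehicle library. The light chains, J chain and the switched classes other than IgG3 thus differed by factors between 1.56 and 2.08.

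The higher group held the unswitched classes and IgG3. Ighd was 2.31, 2.97 and 3.73 CPM with vehicle and 6.35, 5.58 and 6.22 CPM with uridine, a log2 fold change of 1.02 (SE 0.139, edgeR adjusted p = 2.03e-07) that rests on 164 and 363 counts in all. Ighm was 961.8, 960.7 and 960.7 CPM with vehicle and 1049, 1032 and 1037 CPM with uridine. That difference was small, a log2 fold change of 0.11 (SE 0.0144, edgeR adjusted p = 6.07e-08), yet no library overlapped.

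Ighg3 was 9.10, 8.95 and 8.25 CPM with vehicle and 10.1, 11.6 and 10.3 CPM with uridine, with a log2 fold change of 0.28 (SE 0.0856) and an edgeR adjusted p of 0.00865. This call was not stable: the adjusted p was 0.0569 without the third vehicle library, 0.0705 without the second uridine library and 0.0751 with limma voom. In all, 3 of 10 genes were higher with uridine, against 20.0% of all genes tested, and 7 of 10 lower, against 18.1%. The libraries of the groups did not overlap for 10 of 10, against 50.0% of all genes.

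Uridine cultures lay between vehicle cultures and uncultured young cells for 9 of the 10 genes, in mean CPM. This was also the usual position of a gene in these libraries: of the 10981 genes that differed between vehicle and young, 65.9% of those tested, 9806 or 89.3% had their uridine mean between those groups. On the linear scale, the uridine mean had moved from the vehicle mean toward the young mean by a fraction of 0.0949 for Ighm, 0.13 for Ighg3 and 0.254 for Ighd. For Iglc1 the fraction was 0.511, for Igha 0.593 and for Igkc 0.846. Markers of other cell types lay between those groups too. The summed level of 11 genes of mature neutrophils was 319 to 328 CPM with vehicle, 2064 to 2134 with uridine and 5496 to 5710 in young libraries, that of 11 erythroid genes 166 to 171, 347 to 358 and 759 to 772, and that of 8 genes of stroma and endothelium 145 to 146, 274 to 282 and 636 to 664. Among them Ltf, a protein of neutrophil granules, was 9.53 CPM with vehicle, 351 with uridine and 1024 in young cells, and Col1a1, a collagen chain, 0.236, 76.7 and 272 CPM. The part of these cells in the position of the antibody genes was not tested. Ighg1 was the exception among the 10 genes, with 10.0, 8.14 and 9.90 CPM with uridine, 9.29, 11.1 and 11.1 CPM in young and 13.4, 14.9 and 15.5 CPM with vehicle.

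Against young cells, 6 of 10 genes were higher in uridine cultures and 3 lower, where 26.2% and 23.3% of all genes were. Iglc1 was 3.26-fold, Ighg2c 2.14-fold and Igha 2.07-fold above the young level, whereas Ighd, Ighg3 and Ighm dropped by 1.31, 1.13 and 0.78 on the log2 scale. Ighg1 did not pass the test, with a log2 fold change of -0.15 (SE 0.0848) and an edgeR adjusted p of 0.13. It did so without the first young library, at an adjusted p of 0.0296, and with upper quartile scaling, at 0.0326.

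The order of the 4 groups was therefore aged, young, uridine, vehicle for Ighm, Ighd and Ighg3, and aged, vehicle, uridine, young for Ighg2b, Ighg2c, Igha, Igkc, Iglc1 and Jchain. Neighbours in these orders all differed by the edgeR test. For Ighg1 the order was aged, vehicle, young, uridine, and its last pair did not differ beyond the spread.

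Isotype shares give the make-up of heavy chain RNA within a library and need no scaling between libraries. They were computed from raw counts per kb of exon, so that long and short genes weigh alike. In young cells Ighm held 68.6%, 69.5% and 68.5% of heavy chain RNA and Igha 26.5%, 25.8% and 26.8%. In aged cells the order was turned, with 12.6%, 12.6% and 12.5% for Ighm and 76.1%, 76.0% and 76.5% for Igha.

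Ighm thus held the largest share of heavy chain RNA in young and Igha the largest in aged cells, with a difference of 49.9 percentage points in the Igha share. The 4 IgG genes together held 4.21% ± 0.0930 in young and 11.1% ± 0.188 in aged libraries (SD, n = 3). Ighg2c went from 1.87% to 7.32% and Ighg2b from 1.37% to 3.18%, sizes that depend on the gene length used. The shares of Ighd and Ighg3 were smaller in aged cells, at 0.127% against 0.576% and at 0.206% against 0.678%. For all 8 shares compared, the 7 heavy chain genes and Igkc among the light chains, the exact two-sided permutation p was 0.1, the smallest that 3 against 3 libraries allow, and 0.1 after Benjamini-Hochberg adjustment over the 8.

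**Figure D3:**
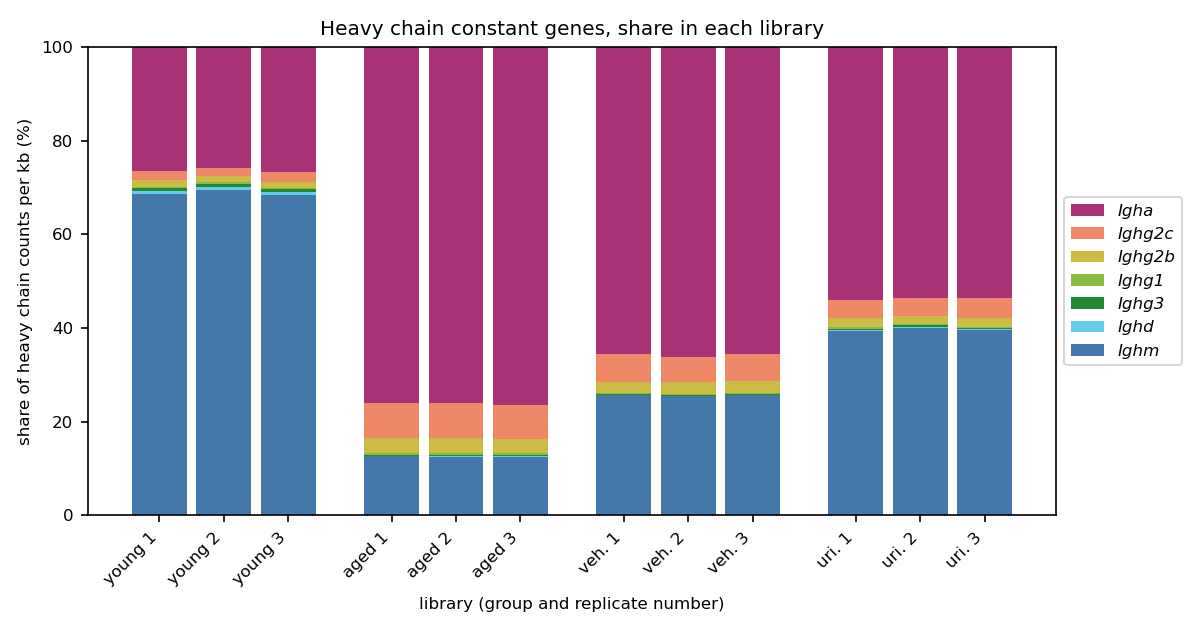
Share of each heavy chain constant gene in the summed heavy chain counts per kb of exon (%), 1 bar per library; young and aged are uncultured, veh. and uri. are aged HSPCs cultured with vehicle and with uridine. The Ighm share was 68.9% in young, 12.6% in aged, 25.6% in vehicle and 39.6% in uridine libraries on average, and libraries of 1 group were nearly alike.

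Vehicle cultures also had Igha as the gene with the largest share. The Igha share was 65.6%, 66.1% and 65.6% and the Ighm share 25.6%, 25.5% and 25.7%, which is 10.4 points below and 13.0 points above the uncultured aged value. Ighd had its lowest share here, at 0.0793% ± 0.0188. The exact permutation p was again 0.1 for all 8 shares.

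With uridine the Igha share was 54.0%, 53.6% and 53.7% and the Ighm share 39.4%, 40.1% and 39.5%. Igha therefore took 12.0 points less and Ighm 14.1 points more than with vehicle, with no overlap between libraries and an exact permutation p of 0.1 (0.133 adjusted over the 8 shares). In level, Igha was 1.75-fold lower and Ighm 1.08-fold higher with uridine. The shares of Ighg1 (0.259% with uridine and 0.283% with vehicle, exact permutation p = 0.4) and of Igkc (93.8% and 93.9%, exact permutation p = 0.5) overlapped between these groups.

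The length used for the shares moved the size of the Igha and Ighm shares but not their order across groups. In the annotation Igha has 2668 bases of exon, which include those of its membrane-bound form, and 1100 bases in its secreted transcript. Per kb of secreted transcript, a scale chosen after seeing the data, the Igha share was 39.9% in young, 84.4% in aged, 77.5% in vehicle and 68.1% in uridine libraries. The Ighm share on that scale was 54.3%, 7.25%, 15.7% and 26.2% in the same order. The exon lengths of Ighg2c and Ighg2b, 1326 and 2678 bases, differ more than their secreted transcripts, 1111 and 1114 bases. Per kb of secreted transcript Ighg2c held 1.39% in young and 3.99% in aged libraries and Ighg2b 2.05% and 3.49%, so that in young cells Ighg2b was then the larger of the pair. The Ighg1 share on that scale overlapped between young (0.393% to 0.470%) and aged libraries (0.463% to 0.474%), unlike per kb of exon.

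Ratios between the chains varied with the isotype make-up. The ratio of Igha to Ighm, per kb of exon, was 0.383 ± 0.0106 in young, 6.07 ± 0.0453 in aged, 2.57 ± 0.0214 in vehicle and 1.36 ± 0.0169 in uridine libraries (SD, n = 3). Jchain stood at 0.0921, 0.186, 0.171 and 0.134 of the sum of Igha and Ighm in the same groups, the chains that hold the TGC codon shown above. Measured against Igha alone it was highest in young cells, at 0.333, and lay between 0.217 and 0.237 in the other groups. Per kb of secreted transcript the ratio of Igha to Ighm was 0.735, 11.7, 4.93 and 2.60 in the young, aged, vehicle and uridine groups, in the same order as per kb of exon. That of Jchain to Igha plus Ighm was 0.105, 0.149, 0.147 and 0.126, and the aged libraries (0.148 to 0.149) then lay within the range of the vehicle libraries (0.144 to 0.150).

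The ratio of Jchain to Igkc varied less than that of Jchain to Igha. Per kb of exon it ran from 0.0775 in young to 0.0964 in uridine libraries, with 0.0857 in aged and 0.0962 in vehicle libraries. Per kb of secreted transcript it ran from 0.140 to 0.174. Light chain RNA exceeded heavy chain RNA per kb of exon by 1.16-fold in young, 1.99-fold in aged, 1.72-fold in vehicle and 1.39-fold in uridine libraries. Per kb of secreted transcript the same ratio was under 1 in every group, between 0.724 and 0.910, with aged cells again highest, and young and uridine libraries overlapped (0.711 to 0.733 and 0.722 to 0.729).

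**Figure D4:**
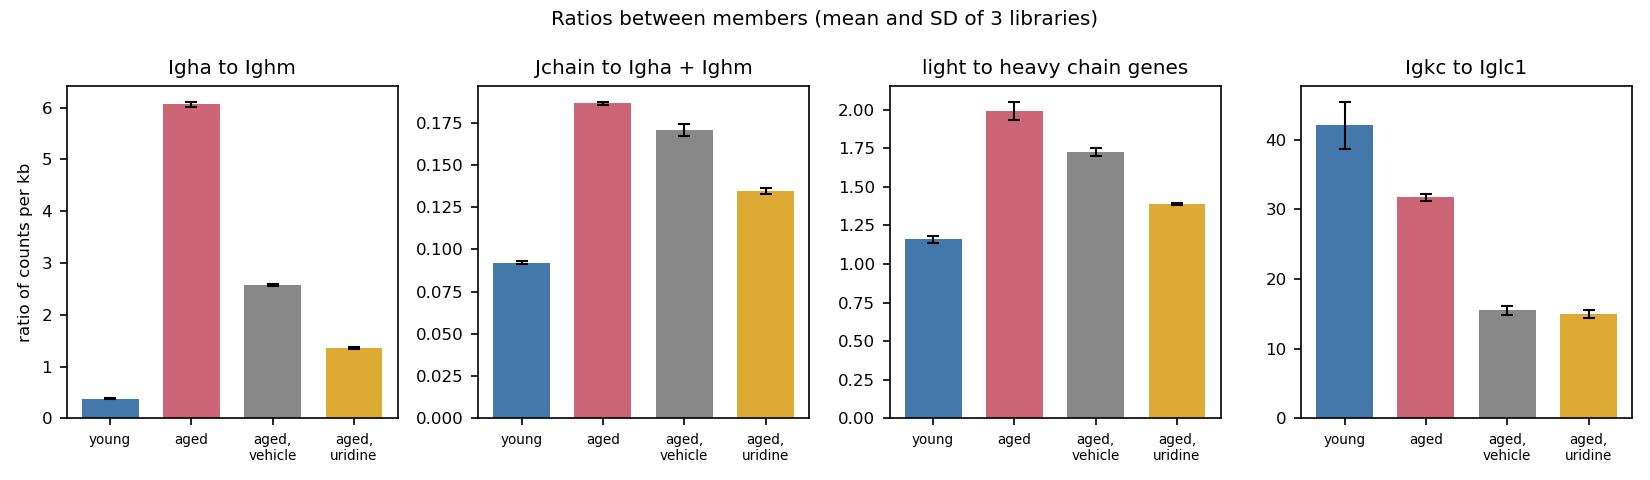
Ratios between the genes within a library, from counts per kb of exon, as mean and SD of 3 libraries per group; young and aged are uncultured. The ratios of Igha to Ighm, of Jchain to Igha plus Ighm and of light to heavy chains ran in the order aged, vehicle, uridine, young, and the ratio of Igkc to Iglc1 was 42.0 in young, 31.8 in aged, 15.5 in vehicle and 15.0 in uridine libraries.

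Among the light chains, kappa led everywhere: Igkc held 97.9%, 97.6% and 97.5% of Igkc plus Iglc1 in young, and 94.0%, 93.7% and 93.6% in uridine libraries. Iglc1 is 1 of several lambda genes, and its own place among them changed. Of the summed Iglc1, Iglc2 and Iglc3 RNA, Iglc1 made up 39.1% ± 3.25 in young, 72.2% ± 0.212 in aged, 87.7% ± 1.86 in vehicle and 79.1% ± 3.10 in uridine libraries. These lambda shares are per kb of secreted transcript, with 458 bases for Iglc2 against 612 bases of exon. Iglc2 was 16.9, 483, 10.3 and 11.5 CPM and Iglc3 9.38, 121, 2.92 and 3.03 CPM in the same groups, so the cultured groups were above young cells in Iglc1 but below them in Iglc2 and Iglc3.

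With Iglc2 and Iglc3 counted as lambda, the Igkc share per kb of exon was 94.8% in young and 96.0% in aged libraries, which turns the direction of that difference. Iglc2 and Iglc3 were 96.5% identical over their coding bases, and their split is uncertain for that reason. Iglc1 was 74.8% and 75.4% identical to them. The IgE gene Ighe, the remaining heavy chain class, had 14 counts in the young libraries together, 293 in aged, 7 in vehicle and 11 in uridine libraries.

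Libraries in which 1 of the 10 genes was high were in general those in which the others were high, because the aged group stood so far above the rest. The Pearson correlation of log2 CPM between any pair of members over the 12 libraries ran from 0.703, for Ighd with Iglc1, to 0.9998, for Ighg2b with Jchain. Ighm, Ighd and Ighg3 were closest to each other (0.976 to 0.999), and Igha was closest to Ighg2c (0.9995). These values describe 4 separate groups of libraries and carry no test.

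Among 10169 other protein-coding genes, the ones most like each member over the 12 libraries also differed between the sets. Ighm and Ighg3 were most like Mzb1, a chaperone of antibody assembly in B cells and plasma cells, with r of 0.9991 and 0.9994. Close behind came Eif1 (0.9988) and Srgn (0.9985) for Ighm, and Srgn (0.9991) and Dok3 (0.9982) for Ighg3. Ighd was most like Cd22 (r = 0.9983), an inhibitory receptor of mature B cells, followed by S1pr1 and Ikzf3. Igkc, Ighg2b and Jchain were most like Cd74 (0.9999, 0.9991 and 0.9984), the invariant chain of MHC class II. Igha and Ighg2c were most like Slc3a2, an amino acid transporter subunit, and also shared Ssr4, a protein of the endoplasmic reticulum channel. Ighg1 was most like H2-Aa, a class II chain, and Iglc1 was most like Swap70, a signalling protein of B cells.

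The machinery of class switching did not follow the switched isotypes as a group. Of the 20 tested genes of switch recombination, 6 were higher and 12 lower in aged than in young cells, where 33.2% and 32.1% of all genes were, with a median log2 fold change of -0.35 against 0.02 over all genes.

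Many of those 12 act in general DNA repair. Msh6, a mismatch repair protein, was 140 ± 3.69 CPM in young and 87.2 ± 2.06 CPM in aged libraries, and Rif1, which protects DNA ends, 158 ± 3.45 and 77.7 ± 4.63 CPM. Ung, which removes uracil from DNA, dropped by 0.41 on the log2 scale (edgeR adjusted p = 1.34e-05). With uridine, 5 of the 20 were higher than with vehicle, where 20.0% of all genes were, among them Ung with a log2 fold change of 0.40. The other 15 did not pass the test.

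Receptors that bind antibodies were mixed. In aged against young cells 8 of 12 were higher and 3 lower, where 33.2% and 32.1% of all genes were. Their median log2 fold change was 0.88, against 0.02 over all genes. Fcmr, the IgM receptor of B cells, rose from 8.50 ± 0.840 to 237 ± 7.05 CPM, and Pigr, which carries polymeric IgA across epithelia, from 0.324 ± 0.153 to 3.73 ± 1.62 CPM. Fcer1g, the signalling chain of several Fc receptors of myeloid cells, dropped by 1.08 on the log2 scale. In vehicle cultures Fcgr1, the high-affinity IgG receptor of macrophages, reached 99.6 ± 0.371 CPM against 0.635 ± 0.266 CPM in uncultured aged cells. With uridine it was 56.6 ± 2.13 CPM, and 2 of the 12 genes were higher and 5 lower than with vehicle, where 20.0% and 18.1% of all genes were.

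Of the cytokines and receptors that direct switching, 14 of 22 tested were higher in aged than in young cells and 7 lower. Of all genes 33.2% were higher and 32.1% lower. The median log2 fold change of the 22 was 0.83, against 0.02 over all genes. The smallest adjusted p-values were those of Tnfrsf13b, Tnfrsf13c and Tnfrsf17, receptors for the B cell survival factors BAFF and APRIL, with log2 fold changes of 2.23, 3.01 and 5.52, and Tgfbr2, a receptor chain for TGF-beta, the cytokine that directs switching to IgA, with 1.44. Tgfb1 itself was lower in aged libraries, 294 ± 16.5 CPM against 379 ± 10.1 CPM. Between uridine and vehicle 7 were higher and 6 lower, where 20.0% and 18.1% of all genes were.

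Markers of antibody-secreting cells were, like the antibody genes, highest as a set in uncultured aged cells. All 19 plasma cell genes were higher in aged than in young cells, where 33.2% of all genes were. Their median log2 fold change was 2.43, against 0.02 over all genes. Their summed level was 1208 to 1229 CPM in young, 6433 to 6527 in aged, 1302 to 1337 in vehicle and 1226 to 1251 in uridine libraries. Sdc1, the surface marker CD138, rose from 22.6 to 287 CPM (log2 fold change 3.66, SE 0.0574), and Prdm1, the transcription factor that drives plasma cell formation, from 4.45 ± 0.224 to 133 ± 5.86 CPM. All 19 were lower in vehicle cultures than in uncultured aged cells, where 35.1% of all genes were. The median log2 fold change was -2.85, against -0.01 over all genes. Cultured and young cells differed less and in both directions. Against young cells, 8 of the 19 were higher and 5 lower in vehicle cultures, where 33.3% and 32.5% of all genes were. In uridine cultures 7 were higher and 6 lower than in young cells, where 26.2% and 23.3% of all genes were. The median log2 fold changes of the 19 were 0.15 and 0.03. No marker of the list was at 0 in any group.

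Between uridine and vehicle, 4 of the 19 plasma cell genes were higher, 9 were lower and 6 did not pass the test. Of all genes 20.0% were higher, a share like that of the plasma cell genes, and 18.1% lower. The median log2 fold change of the 19 was -0.11, against -0.001 over all genes. Sdc1 dropped by 0.34 and Xbp1, a factor of secretory capacity, by 0.23 on the log2 scale. Irf4 and Pou2af1, factors that B cells use at earlier stages too, were higher with uridine, with log2 fold changes of 1.37 and 1.35. Mzb1 was 16.77 ± 0.9 CPM with vehicle and 20.55 ± 0.656 CPM with uridine, and Zbtb20 21.32 ± 0.523 and 33.12 ± 3.39 CPM. Tnfrsf17, whose product BCMA is a defining marker of plasma cells, was 0.946 ± 0.0426 CPM with vehicle and 0.68 ± 0.294 CPM with uridine and did not pass (edgeR adjusted p = 0.312).

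Markers of mature B cells had another pattern. Of 20 genes, 19 were higher in aged than in young cells, where 33.2% of all genes were. The median log2 fold change was 2.39, against 0.02 over all genes. All 20 were lower in vehicle cultures than in aged cells, against 35.1% of all genes, with a median of -4.89 against -0.01. With uridine 13 were higher than with vehicle and 1 lower, where 20.0% and 18.1% of all genes were (median 0.95 against -0.001). Their summed level was 1025 to 1030 CPM in young, 4444 to 4561 in aged, 353 to 356 in vehicle and 524 to 526 in uridine libraries, which is the order of Ighm, Ighd and Ighg3.

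Cd22 was 19.6, 270, 3.80 and 7.70 CPM in the young, aged, vehicle and uridine groups. Markers of B cell precursors ran the opposite way to the antibody genes with age. All 12 were lower in aged than in young cells, where 32.1% of all genes were. Igll1, a part of the surrogate light chain that precursors pair with the IgM heavy chain, was 111 ± 1.86 CPM in young and 4.04 ± 1.16 CPM in aged libraries. In uridine against vehicle cultures 10 of those 12 were higher and 2 lower, where 20.0% and 18.1% of all genes were. Igll1 was 36.5 ± 0.839 CPM with uridine and 1.001 ± 0.0605 CPM with vehicle.

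The part of these cell type markers in the antibody gene differences was not tested. Of the 15 stem and progenitor genes, 5 were higher and 7 lower in aged than in young cells, where 33.2% and 32.1% of all genes were. Single genes of that list moved widely: Ly6a, which encodes the surface marker Sca-1, was 17.8, 247, 455 and 258 CPM in the young, aged, vehicle and uridine groups.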

How the data were processed

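Bone marrow HSPC libraries (12, in 4 groups of 3 taken from the titles) were analysed. Per the labels' protocols, mRNA was captured on poly-T beads, sequenced as 150-base pairs and aligned with HISAT2 2.0.5. Per the submitters' processing notes the genome was mm10. How the counts were made (program, annotation, strand setting) is not stated in the sources at hand. The authors deposited raw counts per gene, 16785065 to 19025802 in each library. Identifiers were matched to GENCODE M21 (54495 of 54532; the 37 others held at most 0.00589% of counts). All 12 libraries were fitted with edgeR 4.0.16 in R 4.3.3 (TMM, filterByExpr, 1 mean per group, quasi-likelihood test), with Benjamini-Hochberg adjustment over 16675 genes and a threshold of 0.05. Shares were compared by exact two-sided permutation tests with scipy 1.17.1. The fits were tested on simulated data.

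The members and gene lists were chosen with earlier results of these data known. All members are named; from the plasma cell, mature B cell, switching and antibody receptor lists any gene could be, and from the others up to 4 genes with the smallest adjusted p. For likeness the rule took the 3 protein-coding genes with the highest r and at least 5 CPM. Tgfb1 was chosen after its values were seen. Reads carry no molecular identifiers, so counting precision covers counting error only. Replicate libraries differed by more than counting noise. Igkc overlaps the noncoding gene Gm30211, and Iglc1 the antisense gene 2010309G21Rik, which held 203 counts beside 46729 and 6 beside 950 in the young libraries. Alternatives used RLE and upper quartile scaling, DESeq2 1.42.0, limma voom 3.58.1, other filters, a replicate block and single libraries left out. No library was excluded. Results for some genes of the lists are not reported here.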

Additional observations from a re-analysis of the deposited data

How the results depend on the processing

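Over 21 alternatives per gene and comparison, no log2 fold change of the 10 genes changed sign, and 1255 of 1260 values kept their side of the threshold when the fold size was not counted. The 5 that did not were Ighg3 in uridine against vehicle, with log2 fold changes from 0.22 to 0.31 over the alternatives, and Ighg1 in uridine against young, from -0.24 to -0.06. The cause was not tested. Asking also for a log2 change of at least 1 left 1 gene higher (from 3) and 1 lower (from 7) in uridine against vehicle, and 3 higher (from 6) in uridine against young, by the construction of that rule. The Igkc share for aged against young turned from -0.72 to 1.26 points when Iglc2 and Iglc3 were added to lambda. Leaving out single libraries, that share difference ran from -0.80 to -0.62 points without them, the Igha difference from 49.6 to 50.1 points for aged against young and from -12.1 to -11.8 points for uridine against vehicle. Same-numbered libraries of different groups did not deviate together (r from -0.031 to 0.047 over 18 pairs). For the 36 pairs with other numbers, r ran from -0.045 to 0.026. With 3 libraries per group whose spread may be technical, this cannot show whether the numbers pair samples. With the replicate block, 10 genes were called higher for aged against young and 3 higher and 7 lower for uridine against vehicle, as without it. Other scalings moved the median of all genes by at most 0.08. Shares per kb of secreted transcript were added after seeing the data. Ighd in vehicle cultures, with 44 to 66 counts a library, and Ighe and Iglc4 are the values that depth limits most.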

Other observations

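Some constant genes outside the 10 described above were near the limit of detection. The lambda gene Iglc4 had 56 counts over the 3 uncultured aged libraries, 1 count in the young libraries and none in either cultured group. Vpreb2, a surrogate light chain gene of B cell precursors that, like Igll1, pairs with the IgM heavy chain before a light chain is made, had 747 counts in young, 13 in aged, 2 in vehicle and 300 in uridine libraries. Between uridine and vehicle it was higher, at 5.01 ± 0.856 against 0.0371 ± 0.0322 CPM (SD, n = 3, edgeR adjusted p = 1.4e-15). Il10, a cytokine of regulatory B and plasma cells that was picked after its values were seen, was 1.38 ± 0.197 CPM in young, 11.2 ± 1.33 in aged, 0.694 ± 0.265 in vehicle and 1.13 ± 0.139 in uridine libraries.

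The spread between libraries of a group was uneven over the 10 genes. Of 40 combinations of gene and group, 8 had a spread below the counting error and 18 a variance over 3 times that of counting, with Igkc in aged cells the widest, at 59570, 57970 and 56160 CPM.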
